A study of Mus musculus with 4 samples.

Results

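The genes described here are the 78 mitochondrial ribosomal protein genes of the mouse, chosen by symbol alone as every gene named Mrpl or Mrps followed by a number, out of 32285 genes counted in each library. Of these, 49 have an Mrpl symbol and 29 an Mrps symbol. By the place of the protein in the ribosome, 51 belong to the large subunit and 26 to the small subunit, since Mrps30 and Mrps18a are named as small-subunit genes while their proteins sit in the large one. The remaining gene, Mrps36, carries the name although its protein is a part of the oxoglutarate dehydrogenase complex. By ancestry, 48 have a counterpart in the bacterial ribosome and 29 are specific to mitochondria.

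Mitochondria carry their own ribosome, which translates the few membrane proteins encoded in mitochondrial DNA, all of them subunits of the respiratory chain and the ATP synthase. Its RNA is mitochondrial, but every one of its proteins is encoded in the nucleus, made on cytosolic ribosomes and imported. In beta cells, ATP made by the respiratory chain couples glucose to insulin release, so the mitoribosome stands between 2 large gene programmes: the cytosolic ribosome, with which it shares its kind of function, and the respiratory chain, which it serves.

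Single cells of islets of Langerhans were sequenced on the 10x Chromium platform in 4 libraries, 1 for each pairing of a genotype with an age. All animals were females that had received diphtheria toxin as newborns, 4 injections given 48 hours apart from postnatal day 2. They were either CCR2-DTR+/- mice, whose transgene makes CCR2-expressing myeloid cells sensitive to the toxin, or wild-type (WT) littermates lacking it (CCR2-DTR-/-). They were weaned on day 21 to chow and kept to 1 month or 6 months of age, and 300 islets pooled from 2 to 3 animals went into each library. The groups are thus both genotypes at either age, and all of them, controls included, carry the toxin treatment. With 1 library a group there is no replicate, no test was possible, and differences between groups cannot be told apart from differences between islet preparations.

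After filtering, 8606, 8501, 3593 and 4221 cells were kept in the WT and the CCR2-DTR library of 1 month and then the WT and the CCR2-DTR library of 6 months, an order used for all lists of 4 values below. Between 4 and 18 cell barcodes were shared by any pair of libraries. Clusters were named from marker genes, and 5 classes were used: beta, alpha, delta, endothelial and macrophage cells, each name meaning cells like that type by their markers. The beta class held 3708, 3131, 753 and 1263 cells with a median of 17292, 14055, 28455 and 27882 UMIs (unique molecular identifiers, each a counted RNA molecule). The macrophage class was the smallest, with 91 to 155 cells a library. More barcodes exceeded 15% mitochondrial UMIs in the CCR2-DTR libraries, 18.4% against 9.37% at 1 month and 23.9% against 12.2% at 6 months.

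The UMIs of a class in a library were added up over its cells and scaled to counts per 1000000 UMIs outside the islet hormone genes (CPM), because hormone RNA took 47.5% to 53.7% of the UMIs of the beta class. A difference between 2 libraries is the log2 ratio of CPM less that of the median gene, and is called a relative log2 ratio. A gene was counted as past the floor with at least 20 CPM on average and 40 UMIs over the 4 libraries. It was called higher or lower when its relative log2 ratio was beyond 0.32 in size, which describes size only. Intervals of single genes cover counting error only. The interval of a list's median describes the spread among its members and not the spread between animals.

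RNA of the mitochondrial ribosomal genes was present in every class and library, and no member was at 0 in any of the 20 combinations. Past the floor were 71 of the 78 members in beta, 72 in alpha, 72 in delta, 68 in endothelial and 68 in macrophage cells. A beta cell gave on average 42.6, 38.5, 66.0 and 62.5 UMIs over all members together. When each cell was thinned to 2000 UMIs, the share of beta cells with no member UMI was 1.09%, 0.893%, 0.992% and 1.70%. Free RNA also gives UMIs, and its part in these shares was not measured.

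Mrpl52, Mrpl33 and Mrps21 were called lower in beta cells of the CCR2-DTR library at 1 month. Mrpl17 and Mrpl32 were among the lowest with age. The promoters of these members, on which results below turn, are shown here. Each is the 200 bases before the RefSeq transcript start on GRCm38.p6, written 5′ to 3′ along the gene. Capitals mark NRF1 letters (GCGCATG) or ETS letters (CCGGAAG) found on either strand. Mrpl52 lies at chr14:54426709-54426908 on the plus strand, Mrpl33 at chr5:31613751-31613950 on the plus strand and Mrps21 at chr3:95871515-95871714 on the minus strand. Mrpl17 lies at chr7:105811088-105811287 and Mrpl32 at chr13:14613038-14613237, both on the minus strand. Mrpl52 holds 1 ETS match, Mrpl33 and Mrpl17 hold 1 NRF1 match each, and Mrpl32 holds 4 NRF1 matches counted over both strands. Mrps21 holds none in these 200 bases. In the wider window counted below, Mrps21, Mrpl33 and Mrpl17 also hold ETS letters, which lie outside the printed bases.
Mrpl52: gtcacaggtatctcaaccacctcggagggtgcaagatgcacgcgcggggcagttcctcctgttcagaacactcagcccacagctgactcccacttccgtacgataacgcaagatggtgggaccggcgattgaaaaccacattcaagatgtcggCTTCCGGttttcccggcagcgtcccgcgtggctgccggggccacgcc
Mrpl33: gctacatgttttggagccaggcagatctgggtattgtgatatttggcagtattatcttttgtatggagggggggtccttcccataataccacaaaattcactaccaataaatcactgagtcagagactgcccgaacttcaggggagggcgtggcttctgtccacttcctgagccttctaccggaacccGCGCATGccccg
Mrps21: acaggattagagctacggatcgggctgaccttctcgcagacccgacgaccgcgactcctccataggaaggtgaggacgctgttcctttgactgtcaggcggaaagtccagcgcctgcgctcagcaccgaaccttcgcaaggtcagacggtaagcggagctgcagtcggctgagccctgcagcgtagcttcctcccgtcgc
Mrpl17: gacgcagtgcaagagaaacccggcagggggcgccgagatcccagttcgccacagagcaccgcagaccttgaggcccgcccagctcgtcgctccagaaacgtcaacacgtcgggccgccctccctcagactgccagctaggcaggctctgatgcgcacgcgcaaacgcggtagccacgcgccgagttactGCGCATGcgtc
Mrpl32: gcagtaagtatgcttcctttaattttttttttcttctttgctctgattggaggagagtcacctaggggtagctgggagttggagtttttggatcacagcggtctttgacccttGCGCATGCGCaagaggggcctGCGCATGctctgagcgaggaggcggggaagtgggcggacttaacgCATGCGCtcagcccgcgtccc

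Over the window from 250 bases before to 50 after the start, 69 of the 78 members were matched to a RefSeq promoter. NRF1 letters were found in 8 of them (11.6%), against 4.04% of all 27025 promoters, and ETS letters in 25 (36.2%), against 9.12%. YY1 letters (ATGGCGG) were in 13 (18.8%), against 4.19%, and a TATA box (TATAAA) in 4 (5.80%), against 14.2%. NRF1 or ETS letters stood in 42.0% of member promoters, 48.3% of the 60 matched cytosolic ribosomal promoters, 35.9% of the 64 matched respiratory chain promoters and 12.5% of all. Each of the 3 programmes thus held NRF1 or ETS letters more often than promoters at large, but base content also differed. The median promoter held 21 CG pairs among the members, 21.5 and 19.5 in the cytosolic and respiratory lists and 7 among all genes, and both motifs contain CG. A match is a description of letters and says nothing about binding.

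The 78 genes are spread over 17 chromosomes. Of them, 23 (29.5%) have a protein-coding gene facing away on the opposite strand, with its start within 1000 bases or overlapping only briefly. The shares were 31.2% of the respiratory chain genes, 16.05% of the cytosolic ribosomal genes and 7.94% of protein-coding genes. Among these pairs, Mrps12 starts 172 bases from Sars2, the mitochondrial seryl-tRNA synthetase. Mrps11 and Mrpl46, one from each subunit, overlap head to head on chromosome 7 over a longer stretch and are not among the 23. The members' transcripts had a median length of 1252 bases, between the 751 bases of the cytosolic ribosomal genes and the 2427 bases of all protein-coding genes. The transcripts of Mrps21 (405 bases), Mrpl52 (418 bases) and Mrpl33 (478 bases) are the only ones of the list below 600 bases.

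**Figure D1:**
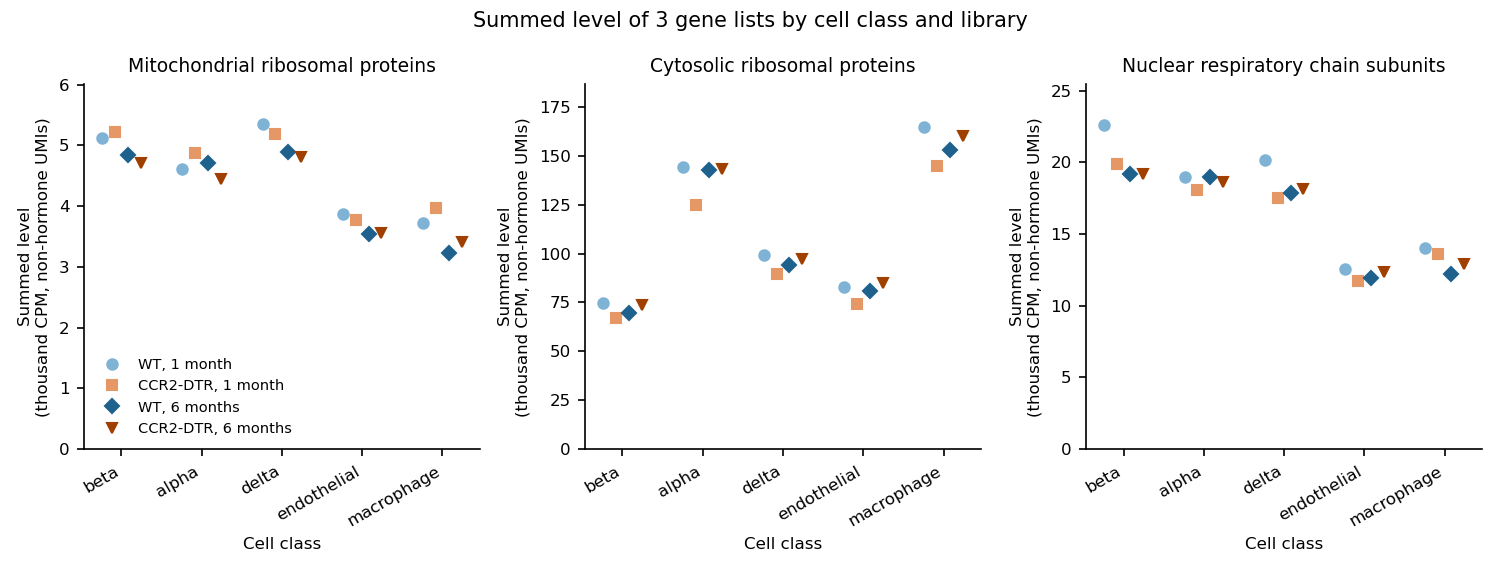
Summed level of the mitochondrial ribosomal, cytosolic ribosomal and nuclear respiratory chain genes (in units of 1000 CPM over non-hormone UMIs, axes from 0) in each cell class, with 1 point a library. The mitochondrial ribosomal sum was highest in delta and beta cells and lowest in macrophages and endothelial cells, an order shared with the respiratory chain more than with the cytosolic ribosome.

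Together the members made up about the same share of the RNA outside the hormone genes in the 3 endocrine classes, and less in the other classes. In beta cells their summed level was 5116, 5213, 4840 and 4711 CPM. In alpha cells it was 4603, 4866, 4716 and 4439 CPM. In delta cells it was 5350, 5192, 4883 and 4815 CPM, the highest mean of the classes. The sums of these classes overlapped between neighbours in this order: delta averaged 5060 ± 253, beta 4970 ± 234 and alpha 4656 ± 180 CPM (SD over the 4 libraries, which differ in genotype and age).

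Endothelial cells had 3877, 3776, 3545 and 3553 CPM and macrophages 3728, 3967, 3223 and 3410 CPM. These 2 classes overlapped each other (means 3688 ± 165 and 3582 ± 331 CPM, SD over 4 libraries) and lay below all 12 endocrine values. The order depends on the scale. On a CPM scale over all UMIs, hormones included, beta cells had the lowest mean, 2433 ± 206, below alpha at 3149 ± 143, macrophages at 3286 ± 200, endothelial cells at 3463 ± 113 and delta cells at 3763 ± 150.

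The 2 comparison programmes ranked the classes differently. The respiratory chain sum averaged 20217 CPM in beta, 18667 in alpha, 18439 in delta, 12152 in endothelial and 13182 in macrophage cells, again with the endocrine classes on top. The cytosolic ribosomal sum averaged 71371 CPM in beta cells, 138968 in alpha cells and 155552 in macrophages, so macrophages and beta cells stood at opposite ends. For each CPM of the members, beta cells had 3.82 to 4.41 CPM of respiratory chain RNA and endothelial cells 3.11 to 3.48. The same ratio for cytosolic ribosomal RNA was 12.9 to 15.7 in beta cells and 36.5 to 47.4 in macrophages.

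Within each library, the median member differed little between classes once the median gene was set to 0. Over the 4 libraries its relative log2 ratio against beta averaged 0.05 ± 0.08 (SD) in alpha, -0.02 ± 0.02 in delta, -0.15 ± 0.06 in endothelial and 0.17 ± 0.06 in macrophage cells. The macrophage value depends on the scale and on the genes included: the plain sums above are lower in macrophages, where the median gene lay 0.44 to 0.71 below that of beta, and with no CPM floor the value was -0.31. The cytosolic ribosomal genes gave 1.05, 0.34, 0.39 and 1.72 and the respiratory chain genes -0.01, -0.17, -0.56 and -0.07 in the same order of classes. The member medians lay nearer the respiratory chain in each of the 4 classes, and the cytosolic ribosomal genes were far higher in alpha cells and macrophages.

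**Figure D2:**
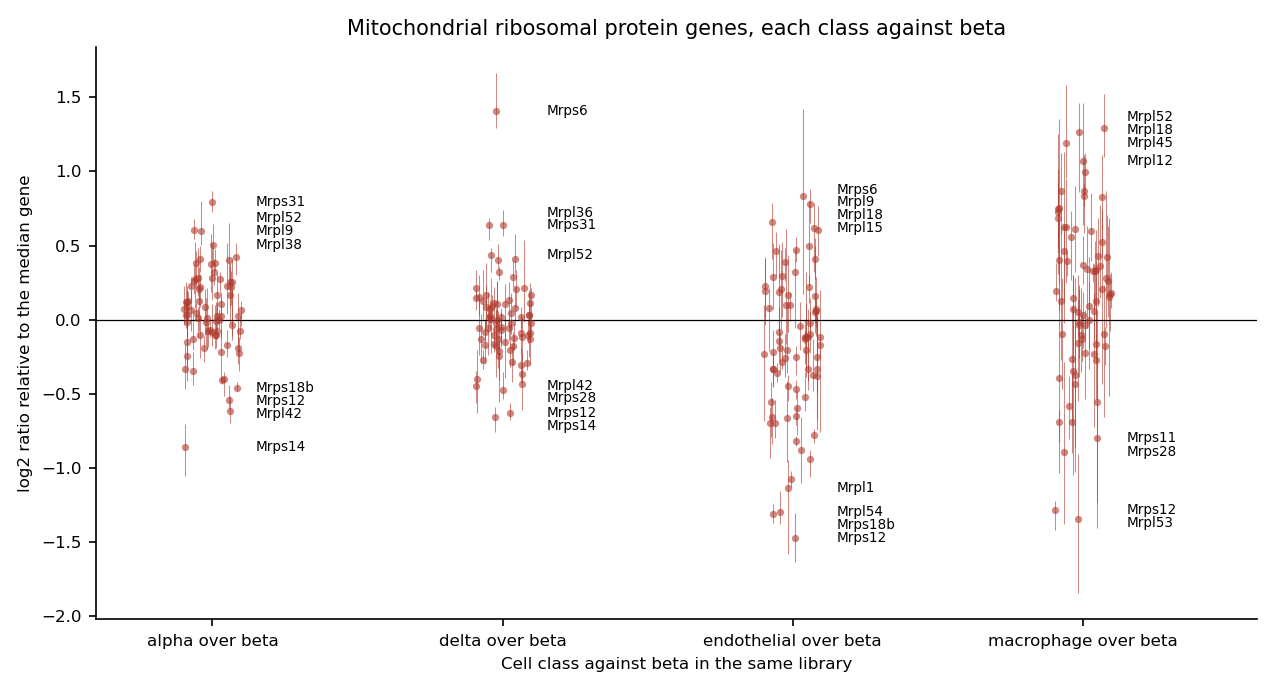
Relative log2 ratio of each member past the floor, in 4 classes against beta in the same library. Points are means of 4 libraries, lines run from the lowest to the highest library, and the 4 highest and 4 lowest members of each class are named; Mrps6 in delta cells stands 1.40 above and Mrps12 in endothelial cells 1.47 below.

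Single members departed from this flat picture, and did so in all 4 libraries. In alpha cells 6 members were called higher than in beta in every library (8.33% of 72, against 17.1% of all genes) and 6 lower (against 20.2%). Highest was Mrps31, a mitochondria-specific protein of the small subunit, at 36.3, 37.2, 38.7 and 33.6 CPM in alpha and 21.2, 23.2, 23.7 and 22.2 CPM in beta cells, without overlap (0.80 ± 0.07, SD over 4 libraries). Lowest was Mrps14, a small-subunit protein with a bacterial counterpart, at 80.4, 92.5, 84.1 and 78.3 CPM in alpha and 177.1, 177.2, 150.4 and 151.0 CPM in beta cells (-0.86 ± 0.15). The shares of members called were below those of all genes in both directions.

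Mrps12, the counterpart of the bacterial protein at the decoding centre, was a beta-enriched member. Its level in beta cells was 216.1, 232.5, 212.8 and 209.7 CPM. It stood at 129.4 to 149.4 CPM in alpha, 141.1 to 156.3 in delta, 59.2 to 78.2 in endothelial and 48.6 to 73.1 CPM in macrophage cells. Relative to the median gene it was lower than in beta in every class, by -0.54 ± 0.07 in alpha, -0.63 ± 0.05 in delta, -1.47 ± 0.14 in endothelial and -1.28 ± 0.09 in macrophage cells (SD over 4 libraries).

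In delta cells 4 members were called higher than in beta in every library (5.56% of 72, against 16.3% of all genes) and 4 lower (against 17.2%). Mrps6, the counterpart of bacterial S6, was at 49.7, 56.7, 44.6 and 51.3 CPM in delta and 19.1, 21.5, 16.5 and 15.3 CPM in beta cells. Its relative ratio, 1.40 ± 0.17 (SD over 4 libraries), was the highest of any member in this class. Mrps6 overlaps Slc5a3, the myo-inositol transporter, on the same strand, and reads of the shared stretch cannot be told apart. Slc5a3 was itself higher in delta cells, at 25.9, 25.5, 38.0 and 41.1 CPM against 10.9, 9.81, 14.3 and 14.5 CPM in beta cells, and its part in the Mrps6 value was not tested.

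Endothelial cells had 5 members called higher (6.94% of 72, against 32.7% of all genes) and 19 called lower (26.4%, against 32.1%) in every library. Mrpl9 and Mrpl18, both large-subunit proteins, stood highest beside Mrps6, at 0.78 ± 0.10 and 0.66 ± 0.17. Lowest after Mrps12 were Mrps18b (-1.31 ± 0.06), Mrpl54 (-1.30 ± 0.11) and Mrpl1 (-1.13 ± 0.30, all SD over 4 libraries). The 3 paralogs of bacterial S18 thus differed in endothelial cells: Mrps18b was at -1.31, Mrps18a at -0.59 ± 0.14 and Mrps18c at 0.17 ± 0.25.

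In macrophages 14 members were called higher than in beta (19.4% of 72, against 30.2% of all genes) and 5 lower (6.94%, against 29.0%). Mrpl52 (1.29 ± 0.20), Mrpl18 (1.26 ± 0.28), Mrpl45 (1.19 ± 0.28) and Mrpl12 (1.07 ± 0.34, all SD over 4 libraries) were highest relative to the median gene. Mrpl45 binds the inner membrane near the exit of the large subunit, and Mrpl12 forms its stalk and has been found with the mitochondrial RNA polymerase. Mrpl58, a peptidyl-tRNA hydrolase that frees stalled ribosomes, was low at -0.69 ± 0.24. Mrpl44, an RNase III-like protein, was at 0.17 ± 0.17 here, 0.61 ± 0.14 in endothelial, 0.41 ± 0.08 in alpha and 0.21 ± 0.12 in delta cells.

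The question whether the members follow the cytosolic ribosome or the respiratory chain was then put to the libraries within each class. The 4 comparisons were CCR2-DTR over WT at 1 month and at 6 months, and 6 over 1 month in WT and in CCR2-DTR. Comparisons that share a library are not independent, and each is given by its own values. In 17 of 20 combinations of class and comparison the member median lay nearer the respiratory chain median than the cytosolic ribosomal median. The median distance was 0.08 to the respiratory chain and 0.18 to the cytosolic ribosome. Every combination with the CCR2-DTR 1-month library lay at least 0.25 from the cytosolic ribosome, and those without it at most 0.11. The 3 nearer the cytosolic ribosome lacked that library: WT beta and delta cells with age and macrophages between genotypes at 6 months. The member median had the sign of the respiratory chain in 11 of 20 and that of the cytosolic ribosome in 8 of 20, so nearness did not amount to moving together.

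**Figure D3:**
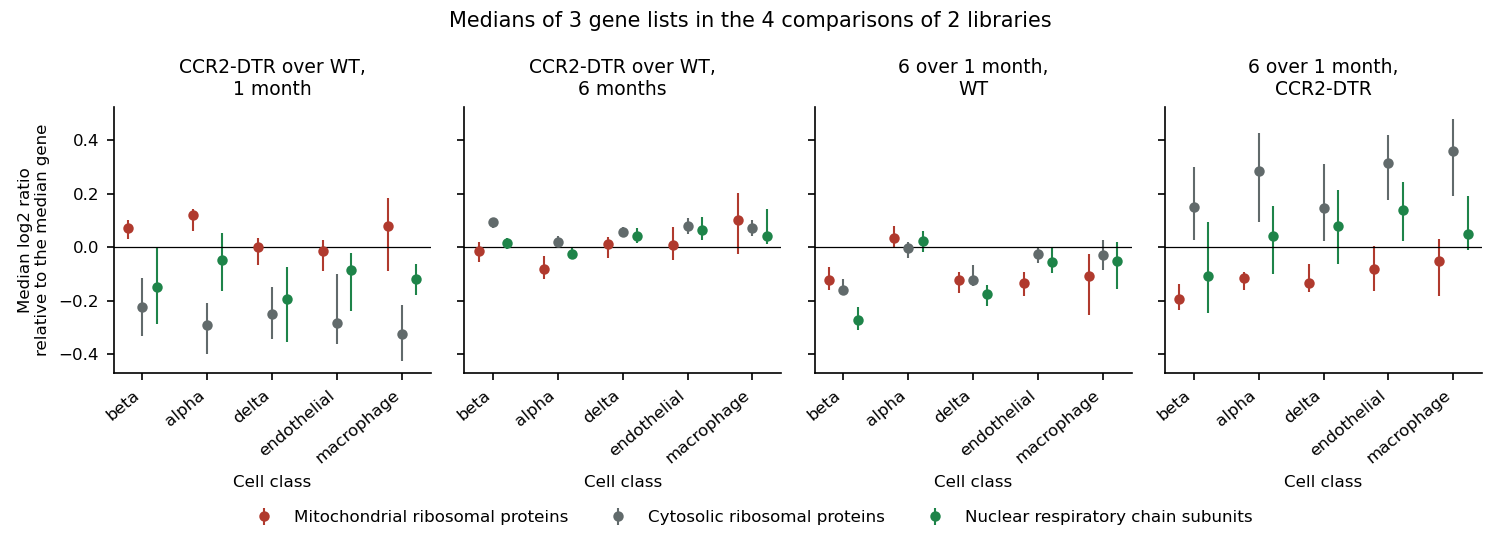
Median relative log2 ratio of the 3 gene lists in each cell class, 1 panel a comparison of 2 libraries. Bars are order-statistic intervals at 95% over the genes of a list. At 1 month the cytosolic ribosomal medians lie at -0.22 to -0.32 in all 5 classes while the mitochondrial ribosomal medians lie between -0.01 and 0.12.

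At 1 month the relative level of the members was slightly higher in the CCR2-DTR library in beta and alpha cells. In beta cells 49 of 71 members lay above the median gene and 22 below, with a median of 0.07 (0.03 to 0.10). None was called higher (1.06% of all genes were) and 3 were called lower (4.23%, against 2.75% of all genes). In alpha cells 57 of 72 lay above and 15 below, with a median of 0.12 (0.06 to 0.14), 2 called higher (against 1.94%) and 3 lower (against 2.89%). Delta, endothelial and macrophage cells had medians of 0.00, -0.01 and 0.08, the last of which was -0.085 with cells thinned to 2000 UMIs. In delta cells none was called higher (against 4.41%) and 4 were called lower (against 6.15%).

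The cytosolic ribosomal medians in the same comparison were -0.22, -0.29, -0.25, -0.28 and -0.32 in beta, alpha, delta, endothelial and macrophage cells. Those of the respiratory chain were -0.15, -0.05, -0.19, -0.09 and -0.12. The member medians therefore stood above those of both lists in every class. Several quantities moved with the genotype in the beta class at 1 month. Hormone RNA was 53.7% of UMIs in WT and 47.5% in CCR2-DTR, digestive enzyme RNA 0.000942% and 0.0134%, cycling cells 9.98% and 12.1%, and the median depth 17292 and 14055 UMIs. With each cell thinned to 2000 UMIs the member median was 0.02 in beta and 0.05 in alpha cells.

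The 3 members called lower in beta cells at 1 month were the 3 with the shortest transcripts, whose promoters are printed above. Mrpl52, a mitochondria-specific protein of the large subunit, was at 73.0, 52.2, 71.1 and 80.3 CPM in beta cells, with the CCR2-DTR 1-month library lowest (-0.49, counting interval -0.59 to -0.39). Mrpl33, whose bacterial counterpart is L33, was at 102.7, 75.9, 104.5 and 99.3 CPM, again lowest in that library (-0.44, -0.53 to -0.36). Mrps21, whose bacterial counterpart is S21, was at 124.0, 92.8, 115.5 and 122.1 CPM (-0.42, -0.50 to -0.35). The other 3 libraries were close to one another for each of these genes.

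The same library was lowest in every class for Mrpl52 and Mrpl33, and in 4 of 5 classes for Mrps21. It was also lowest in 4 of 5 classes for Mrps5, whose transcript is long (4481 bases), and for Mrps18c, whose transcript of 638 bases is short as well. In alpha cells Mrpl52 was at 104.8, 72.5, 103.7 and 110.1 CPM and in endothelial cells at 66.3, 40.3, 49.5 and 49.5 CPM. Mrps21 in delta cells was at 124.5, 79.9, 113.1 and 111.2 CPM (-0.66, -0.88 to -0.44), and in macrophages its lowest library was WT at 6 months. The classes of a library were captured together, so they are not independent repeats. Within the beta clusters 0, 2 and 7 the genotype ratio at 1 month was -0.38, -0.49 and -0.75 for Mrpl52, -0.37, -0.53 and -0.53 for Mrpl33, and -0.32, -0.57 and -0.56 for Mrps21.

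**Figure D4:**
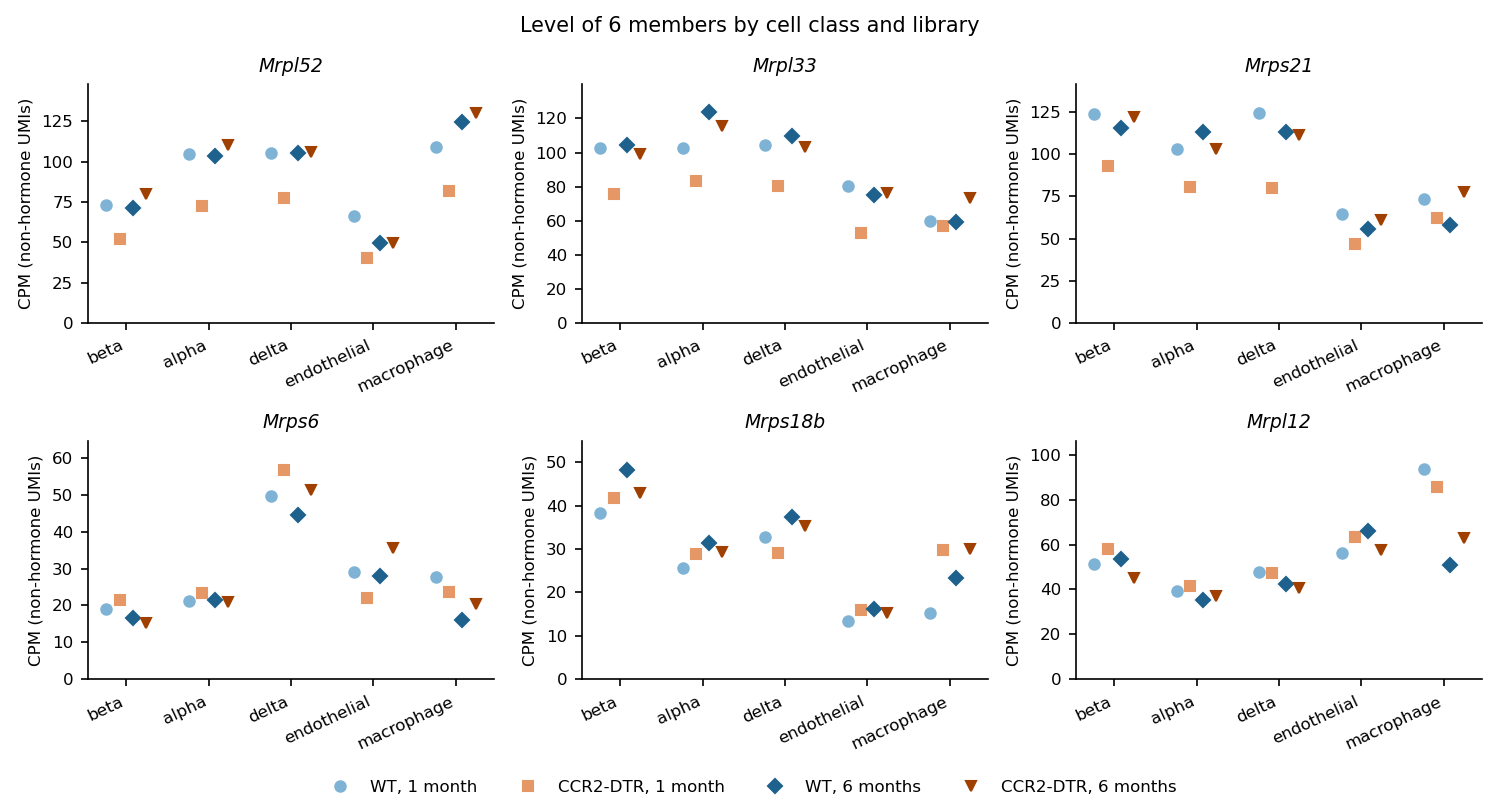
Level of 6 members (CPM over non-hormone UMIs, axes from 0) in each cell class, with 1 point a library. Mrpl52 and Mrpl33 are lowest in the CCR2-DTR 1-month library in all 5 classes, Mrps6 is highest in delta cells, and Mrps18b is higher in beta than in all other classes, while Mrpl12 is highest in macrophages at 1 month.

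Short transcripts of other genes shared the pattern of these 3 members. Among all genes with transcripts under 600 bases, a limit chosen after the data were seen, the median genotype ratio at 1 month in beta cells was -0.35 (156 genes). It was -0.42 for the 27 cytosolic ribosomal genes in that range, -0.43 for the 25 respiratory chain genes and -0.30 for the 101 genes outside the 3 lists. Members of 600 to 1000 bases had a median of 0.06, those of 1000 to 2000 bases 0.12, and longer ones 0.07. In the 600 to 1000 base range the cytosolic ribosomal genes were at -0.07 and the respiratory chain genes at -0.06. From 1000 to 2000 bases the 16 cytosolic ribosomal genes were at -0.02 and the 22 respiratory chain genes at 0.10, close to the members. Above 2000 bases the 3 cytosolic ribosomal genes were at -0.35 and the 5 respiratory chain genes at 0.05. The distance between the members and the cytosolic ribosomal genes was thus smaller than over all lengths at 600 to 1000 and at 1000 to 2000 bases. It was larger above 2000 bases, where few cytosolic ribosomal genes lie. Without genes under 600 bases the member median was nearer the respiratory chain in 15 of the 20 combinations.

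At the upper end of the beta cells at 1 month stood Mrps35 at 26.7 CPM in WT and 32.5 in CCR2-DTR (0.28, 0.13 to 0.42), Mrps34 at 66.0 and 79.2 CPM (0.26, 0.17 to 0.35) and Mrpl46 at 31.1 and 37.0 CPM (0.24, 0.11 to 0.38), all mitochondria-specific. Mrps17 and Mrpl16 followed at 0.22 and 0.21. In alpha cells Mrpl16, a large-subunit protein with a bacterial counterpart, was at 21.9 and 28.2 CPM (0.35, 0.13 to 0.56) and Mrpl18 at 39.0 and 49.7 CPM (0.33, 0.17 to 0.49). In beta cells, no member was beyond 0.32 upward.

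At 6 months the genotypes were closer in beta cells. There 30 of 71 members lay above the median gene and 41 below, with a median of -0.02 (-0.05 to 0.02), and none was called higher (against 1.5% of all genes) or lower (against 2.21%). Mrps11 was highest at 34.3 CPM in WT and 40.8 in CCR2-DTR (0.27, 0.08 to 0.46), and Mrpl12 lowest at 53.6 and 45.1 CPM (-0.23, -0.39 to -0.07). Mrpl52, the lowest member at 1 month, was at 0.19 (0.06 to 0.33). The genotype ratios at the 2 ages, which share no library, had the same side of the median gene for 30 of 71 members in beta cells (42.3%, against 46.9% of all genes).

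In alpha cells the median was 0.12 at 1 month and -0.08 (-0.12 to -0.03) at 6 months, with 22 members on the upper and 50 on the lower side. The cytosolic ribosomal median was 0.02 and that of the respiratory chain -0.02. Called higher was 1 member (against 3.64% of all genes), Mrpl45, at 17.5 CPM in WT and 23.7 in CCR2-DTR (0.45, 0.16 to 0.74), and called lower 1 (against 2.0%), Mrpl41, at 86.3 and 67.9 CPM (-0.33, -0.48 to -0.18). For both genes the WT 6-month library stood apart from the others: Mrpl41 was at 60.5 and 69.8 CPM and Mrpl45 at 24.04 and 25.5 CPM at 1 month. The delta, endothelial and macrophage medians at 6 months were 0.01, 0.01 and 0.10. In delta cells 1 member was called higher (against 5.19%) and 3 lower (against 5.61%).

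With age, the median member lay below the median gene in all classes and both genotypes except WT alpha cells. In WT beta cells 17 of 71 lay above the median gene and 54 below, with a median of -0.12 (-0.16 to -0.07), none called higher (against 7.19% of all genes) and 3 called lower (4.23%, against 8.06%). Delta, endothelial and macrophage medians in WT were -0.12, -0.13 and -0.11 and that of alpha cells 0.03 (0.00 to 0.08). In beta cells the respiratory chain was lower still, at -0.27 with 76 of 78 genes below the median gene, and the cytosolic ribosome was at -0.16. Age ratios also moved with transcript length. Over all genes of beta cells, Spearman's rho with length was 0.29 in WT and 0.32 in CCR2-DTR. At 600 to 1000 bases the WT age median was -0.15 for the members and -0.16 for all genes. At 1000 to 2000 bases these were -0.12 and -0.07, and above 2000 bases -0.12 and 0.04. In CCR2-DTR they were -0.21 and -0.19, -0.25 and -0.16, and -0.18 and 0.04. The part of length in the age medians was not tested.

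The beta class was made up of different clusters at the 2 ages. Cluster 0, led by Cox6a2 and Ucn3, held 2351 and 1650 cells at 1 month and 143 and 268 at 6 months. Cluster 2, led by Trpm5 and Atf5 and with Ucn3 and Mafa also among its top genes, held 596, 679, 449 and 799 cells. Within clusters 0, 2 and 7 the age median of the members in WT was -0.07, -0.04 and -0.07, each closer to 0 than in the whole class. In CCR2-DTR it was -0.09, -0.10 and -0.18. The median depth of the beta class also moved with age, from 17292 and 14055 UMIs at 1 month to 28455 and 27882 at 6 months, and cycling cells made up 9.98%, 12.1%, 4.78% and 3.33%. A cluster of few UMIs that scored as beta was left unnamed, with 15, 228, 899 and 556 cells. With it counted as beta, the age median in WT was -0.27 and the genotype median at 6 months 0.04.

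**Figure D5:**
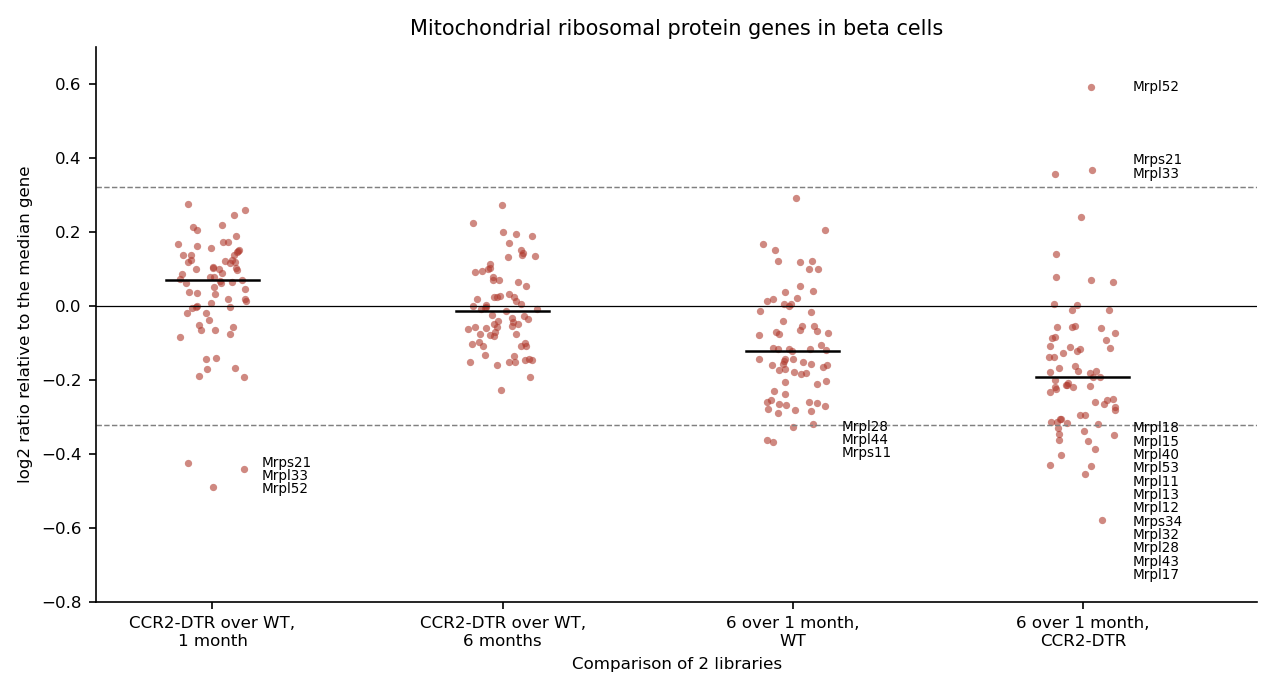
Relative log2 ratio of the 71 members past the floor in beta cells in the 4 comparisons of 2 libraries, with 1 point a gene. Dashed lines mark a log2 ratio of 0.32 on either side, short black lines the medians (0.07, -0.02, -0.12 and -0.19), and members beyond the dashed lines are named.

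The members called lower with age in WT beta cells were Mrps11, Mrpl44 and Mrpl28. Mrps11, a small-subunit protein with a bacterial counterpart, was at 43.0 CPM at 1 and 34.3 at 6 months (-0.37, -0.54 to -0.20). Mrpl44 was at 31.9 and 25.5 CPM (-0.36, -0.56 to -0.16), and its ratio in CCR2-DTR was -0.31. Mrpl28, the counterpart of bacterial L28, was at 96.0 and 78.8 CPM (-0.33, -0.44 to -0.21), but at 0.08 with each cell thinned to 2000 UMIs. Within clusters 0, 2 and 7 the ratio was -0.30, -0.17 and -0.43 for Mrps11, -0.43, -0.19 and -0.27 for Mrpl44, and -0.21, -0.19 and -0.11 for Mrpl28, so none was beyond 0.32 in all 3 clusters. On the other side, Mrps18b was at 38.3 CPM at 1 and 48.2 at 6 months (0.29, 0.14 to 0.44), with 0.62, 0.33 and 0.48 in the 3 clusters, while its paralogs Mrps18a and Mrps18c were at -0.16 and -0.07.

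In CCR2-DTR beta cells more members were beyond 0.32 with age. Of 71 members 10 lay above the median gene and 61 below, with a median of -0.19 (-0.23 to -0.14), 3 were called higher (4.23%, against 9.43% of all genes) and 12 lower (16.9%, against 12.3%). The 12 were Mrpl11, Mrpl12, Mrpl13, Mrpl15, Mrpl17, Mrpl18, Mrpl28, Mrpl32, Mrpl40, Mrpl43, Mrpl53 and Mrps34, of which 11 are large-subunit genes. Within clusters 0, 2 and 7, Mrpl17 was the 1 of these 12 beyond 0.32 in every cluster. Of the members past the floor 48 belong to the large and 22 to the small subunit, and the median of either subunit was -0.20. The 3 called higher were again Mrpl52 (0.59), Mrps21 (0.37) and Mrpl33 (0.36), which share the 1-month library with the genotype comparison above.

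Mrpl17, a large-subunit protein near the exit tunnel, had the lowest ratio in this comparison. It was at 135.0, 144.9, 111.5 and 98.9 CPM, so both 6-month libraries lay below both 1-month libraries (-0.58, -0.67 to -0.49, in CCR2-DTR and -0.32 in WT). Within clusters 0, 2 and 7 the CCR2-DTR ratio was -0.36, -0.54 and -0.57. Mrpl32, whose maturation by a mitochondrial protease precedes ribosome assembly, was at 59.1, 63.1, 50.4 and 47.8 CPM (-0.43, -0.56 to -0.31) and Mrpl43, which overlaps the helicase gene Twnk on the other strand, at 73.0, 77.0, 62.8 and 57.3 CPM (-0.45, -0.57 to -0.34). Mrpl18, at -0.33 in the whole class, was at -0.14, -0.10 and -0.14 within the clusters.

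Mrpl12 was at 51.4, 57.8, 53.6 and 45.1 CPM in beta cells, an age ratio of 0.02 in WT and -0.39 (-0.52 to -0.26) in CCR2-DTR. Mrpl58 was at 73.4, 77.4, 68.1 and 68.0 CPM (-0.15 and -0.22). Mrps30 was at 23.6, 25.5, 19.98 and 22.2 CPM (-0.29 and -0.23) and Mrpl45 at 20.1, 20.9, 20.8 and 19.3 CPM (0.01 and -0.14). Mrps36, which is no ribosomal protein, was at 64.5, 65.6, 56.3 and 59.2 CPM (-0.24 and -0.18), within the range of the ribosomal members. Leaving it out changed no beta median by more than 0.01.

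In alpha cells of CCR2-DTR mice 17 members lay above and 55 below the median gene with age, at a median of -0.12 (-0.16 to -0.09), 3 called higher (against 8.21% of all genes) and 10 lower (13.9%, against 7.71%). Mrpl18 was at 49.7 CPM at 1 and 33.03 at 6 months (-0.55, -0.74 to -0.36) and Mrps34 at 60.3 and 42.1 CPM (-0.47, -0.64 to -0.31). In WT alpha cells 45 members lay above and 26 below, 3 were called higher (4.17%, against 6.12%) and 1 lower (against 6.47%). There Mrpl41 was at 60.5 and 86.3 CPM (0.53, 0.39 to 0.67), Mrpl16 at 21.9 and 30.8 (0.51, 0.28 to 0.74), Mrps10 at 30.6 and 39.96 (0.40, 0.20 to 0.60) and Mrpl45 at 24.04 and 17.5 CPM (-0.44, -0.72 to -0.17). The age medians of alpha cells thus lay on opposite sides of the median gene in the 2 genotypes, and this difference was not tested.

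Delta cells resembled beta cells in direction. In WT 15 of 72 members lay above the median gene and 57 below, none was called higher with age (against 11.7%) and 9 were called lower (12.5%, against 10.3%). In CCR2-DTR 4 were called higher (5.56%, against 12.6%) and 13 lower (18.1%, against 10.8%), with a median of -0.13. Mrpl14, the counterpart of bacterial L14, was at 101.8, 98.2, 64.6 and 73.9 CPM, with both 6-month libraries below both 1-month libraries (-0.69, -0.93 to -0.45, in WT and -0.41 in CCR2-DTR). Mrpl14, Mrpl18, Mrpl32 and Mrps24 were called lower in both genotypes, comparisons that share no library. These 4 are 5.56% of the members past the floor, close to the 4.50% of all genes called lower in both.

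Endothelial and macrophage values rest on fewer UMIs. In endothelial cells Mrps5, a small-subunit protein with a bacterial counterpart, was at 51.2, 33.3, 56.0 and 53.5 CPM, lowest in the CCR2-DTR 1-month library (-0.64, -1.04 to -0.25, against WT), although its transcript is 4481 bases long. In macrophages no member reached 200 UMIs over the 2 libraries in 2 of the 4 comparisons, and Mrpl52 was at 109.0, 81.8, 124.8 and 129.9 CPM (0.83, 0.40 to 1.27, for 6 over 1 month in CCR2-DTR).

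Counted by library, more members had their highest CPM in the CCR2-DTR 1-month library than in any other, in every class: 45 of 71 in beta, 44 of 72 in alpha, 29 of 72 in delta, 28 of 68 in endothelial and 37 of 68 in macrophage cells. Among all genes past the floor 27.4%, 34.5%, 27.5%, 31.8% and 41.7% were highest there. RNA of other cell types moved with this library. In macrophages the alpha markers summed to 1993 CPM in WT and 4440 CPM in CCR2-DTR at 1 month, the beta markers to 313 and 868 CPM, and hormone RNA was 7.97% and 13.3% of UMIs. In endothelial cells the alpha markers summed to 804 and 1302 CPM and cycling cells were 3.38% and 13.2%. The part of these in the counts was not tested. Mrpl28, Mrpl51, Mrpl13, Mrps17 and Mrps23 were highest in that library in all 5 classes, and Mrpl40 and Mrps24 were lowest in the CCR2-DTR 6-month library in all 5. Some of these orders rest on small gaps. Mrpl40 in endothelial cells was at 25.3 CPM (51 UMIs) there, against 26.2 CPM (64 UMIs) in the WT 1-month library. Mrps24 in macrophages was at 101.6 CPM (115 UMIs) there, against 105.4 CPM (85 UMIs) in the CCR2-DTR 1-month library. Mrps31 was highest in the WT 6-month library in all 5 classes. In macrophages this rested on 18.9 CPM (13 UMIs) against 18.6 CPM (15 UMIs) in the CCR2-DTR 1-month library, below the floor. The share of all genes with the same extreme library in all 5 classes was not counted.

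The levels of the 3 programmes over the 20 combinations of class and library were compared as profiles, with the mean log2 CPM of a list at each point. The member profile had r = 0.91 (Spearman 0.75) with the respiratory chain and r = -0.39 (Spearman -0.38) with the cytosolic ribosome over the 20 points, which share libraries, depth and the CPM total. The second value turned to 0.59 when profiles were taken relative to the median gene and to 0.58 on CPM over all UMIs, while the first was 0.76 and 0.79. With class means removed, r was 0.43 with the respiratory chain and -0.60 with the cytosolic ribosome. By Pearson's r the respiratory chain was the closer of the 2 lists on each of these scales. By Spearman's rho relative to the median gene the lists were practically equal, at 0.59 and 0.58. Without macrophages, over 16 points of log2 CPM, r was 0.90 with the respiratory chain and 0.12 with the cytosolic ribosome.

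Gene by gene, the members' share stood further from that of all genes within classes than over the 20 points. Past the floor in every class were 63 members. Over 20 points 34 of them (54.0%) had a higher r with the respiratory chain than with the cytosolic ribosome, against 48.1% of all genes. Within classes 51 of 63 (81.0%) did, against 51.5% of all genes. There the median r of a member was only 0.13 with the respiratory chain and -0.22 with the cytosolic ribosome. A member counted this way could run against both profiles, as Mrpl13 did at -0.28 and -0.65. In single cells thinned to 2000 UMIs, where a cell had a median of 4 to 8 member UMIs, the Spearman correlation over cells was 0.04 to 0.32 with the respiratory chain sum and -0.20 to 0.16 with the cytosolic ribosomal sum.

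Of the other mitochondrial lists, the enzymes of the tricarboxylic acid cycle had the log2 CPM profile closest to that of the members. Their 14 genes had medians of 0.09, -0.04, -0.12 and -0.20 in beta cells over the 4 comparisons in the order given, against 0.07, -0.02, -0.12 and -0.19 for the members. Their profile had r = 0.95 with that of the members over the 20 points and 0.92 with class means removed. Relative to the median gene these were 0.76 and 0.78, and over the 20 points other lists were closer, complex V (0.87) and import (0.83) among them. The import machinery, 20 of 25 genes past the floor, had 0.10, 0.00, -0.05 and -0.16. Within the respiratory chain, complex I (r = 0.93) and complex III (0.90) were closest over the 20 points, and complex II, with 4 genes, followed at 0.88. With class means removed complex II had r = 0.87 and complex I 0.42. Complex IV, whose medians in beta cells were -0.32, 0.03, -0.27 and 0.10, was farthest on both measures, with r = 0.67 and -0.08. This order of the complexes also depended on the scale. Relative to the median gene, complex I (0.60) lay below complex IV (0.65) over the 20 points.

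In beta cells, the median ratios of other genes of mitochondrial translation lay nearer 0 than those of the members in the age comparisons. The translation factors, 8 of 13 past the floor in beta cells, had medians of -0.01, -0.01, 0.08 and 0.08. Of 17 mitochondrial aminoacyl-tRNA synthetases only 5 passed the floor, with -0.02, -0.01, 0.03 and 0.04, and of 25 assembly and rRNA modification genes 6 passed, with 0.04, -0.01, 0.04 and -0.05. The mitoribosomal proteins with another kind of symbol, 4 of 5 past the floor, had -0.05, -0.05, -0.03 and -0.03. Over the 20 points of log2 CPM their profiles were nonetheless like that of the members, with r = 0.905 for the factors, 0.83 for the synthetases, 0.91 for the assembly genes and 0.91 for the proteins of another symbol. With class means removed these were 0.06, -0.02, 0.20 and 0.72. The 13 mitochondrially encoded genes, whose mRNAs the mitoribosome translates, had -0.03, 0.15, -0.08 and 0.05. Their log2 CPM profile had r = 0.57 with that of the members over the 20 points and -0.32 with class means removed.

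Cycling beta cells, with UMIs of at least 3 proliferation genes, had more member RNA than the other beta cells of the same library. In WT at 1 month the summed level was 5584 CPM in 370 cycling and 5039 CPM in 3338 other cells, with 55 of 71 members above the median gene and a median of 0.15 (0.11 to 0.21). In CCR2-DTR at 1 month it was 5584 CPM in 380 and 5143 CPM in 2751 cells, with 49 of 71 above and a median of 0.11 (0.04 to 0.18). The cytosolic ribosomal median was 0.13 and 0.09 and the respiratory chain median 0.06 and 0.03, while the mitochondrially encoded genes were lower at -0.28 and -0.19. Cycling cells were also deeper, with a median of 22718 against 16905 UMIs in WT and 16861 against 13747 UMIs in CCR2-DTR, and the part of depth in this difference was not tested.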

How the data were processed

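Gene by barcode UMI counts were used as deposited by the authors. They were made with Cell Ranger 5.0.1 on mm10, per the submitters' processing notes. They were taken as they stand, annotation release and intron counting being not given in the sources used here. Barcode and gene files name the rows and columns.

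Kept barcodes had 1000 or more UMIs, 500 or more genes and no more than 15% of UMIs from mitochondrial genes, and those with a Scrublet score above 0.25 were removed (493, 409, 127 and 171 barcodes). Cells were clustered with scanpy 1.11.5 (2000 variable genes, 30 components, 15 neighbours, Leiden resolution 1) and named from listed markers. Counts of a class were summed per library. Cycling cells had UMIs of at least 3 proliferation genes.

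Ratios are relative to the median gene past the floor. Single-gene intervals (95%) are exact conditional Poisson intervals and cover counting error only. With 1 library a group no p-value was computed. The comparisons between libraries and their counting intervals were tried on counts simulated from the class sums, without differences between animals. The other steps were not simulated. Gene positions are those of GRCm38 and promoters those of RefSeq.

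Members are all genes of the symbol rule. Named genes are the highest and lowest with at least 200 UMIs over the 2 libraries together (5 either way in beta, 3 in other classes, 4 against beta) and 10 fixed genes, and any other member was named after its values were seen. Members and lists were chosen with earlier results of these data known.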

Additional observations from a re-analysis of the deposited data

Results flagged for a closer look

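The alpha cell median of the members lay on opposite sides of the median gene in the 2 genotype comparisons, at 0.12 for CCR2-DTR over WT at 1 month and at -0.082 at 6 months. The 2 age comparisons use the same 4 libraries, so their opposite sides, at 0.035 in WT and at -0.12 in CCR2-DTR, are not a separate observation. Mrpl52 in endothelial cells was lower at 6 than at 1 month in WT (-0.41, counting interval -0.80 to -0.03) and higher in CCR2-DTR (0.34, -0.06 to 0.73). Each of these pairs was singled out because its effects had opposite signs, and with 1 library a group none of the differences was tested.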

How the results depend on the processing

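No paired analysis was possible because each group is 1 library. Of 176 values of the 20 relative medians under alternatives, 13 had the other sign, all of medians within 0.08 of 0, and 14 medians kept their sign throughout. The macrophage median of CCR2-DTR over WT at 1 month ran from -0.085 to 0.12. The member median was nearer the respiratory chain in 15 to 17 of 20 combinations. With no CPM floor, the medians against beta were -0.16 in delta, -0.27 in endothelial and -0.31 in macrophage cells, and Mrpl24 (-0.10), Mrpl30 (-0.076) and Mrps16 (-0.14) were lower in macrophages than in beta, having been 0.40, 0.43 and 0.36. With a floor of 50 CPM the endothelial value was -0.33 and r with the cytosolic list -0.22. With doublets kept, delta against beta was -0.054. With cells thinned to 2000 UMIs, CCR2-DTR over WT gave 0.017 in beta and 0.052 in alpha cells at 1 month and -0.017 in alpha cells at 6 months. In the same setting the age medians were -0.24 in CCR2-DTR beta, -0.19 in WT delta and -0.19 in WT endothelial cells, Mrpl28 in WT beta cells was at 0.081 and Mrpl2 in CCR2-DTR alpha cells at 0.039 (-0.34 unthinned). With low-UMI clusters counted, beta cells gave 0.041 for genotype at 6 months, -0.27 for age in WT and -0.24 in CCR2-DTR, and delta against beta was 0.018. With classes from a gate on marker UMIs, age in WT beta cells gave -0.16, and delta, with 15 or 16 cells a library, gave no value. On CPM over all UMIs, r was 0.58 with the cytosolic list and 0.79 with the respiratory chain, and relative to the median gene 0.59 and 0.76. The causes were not tested. Leaving out transcripts under 600 bases, profiles relative to the median gene and leaving out each library were chosen after seeing the data.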
